A study of Homo sapiens with 6 samples.

Results

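A set of 10 probes that report transcripts of the G2 phase and of mitosis were followed in OCM1A cells sorted for the drug pump ABCB1. They were chosen by identifier, each paired with its gene: ILMN_1686097 (TOP2A), ILMN_1712803 (CCNB1), ILMN_1801939 (CCNB2), ILMN_1663390 (CDC20), ILMN_1680955 (AURKA), ILMN_1747911 (CDK1), ILMN_1726720 (NUSAP1), ILMN_2301083 (UBE2C), ILMN_1803124 (BIRC5) and ILMN_1753196 (PTTG1). Of these 10 probes, 9 were among the 24526 probes of the table. ILMN_1753196, the probe paired with PTTG1, was not analysed here, and PTTG1 is described through another probe. The platform annotation gave each of the 9 probes the same gene as the rule did, and all 9 were detected on all 6 arrays (detection p under 0.05) and passed the filter on dim probes.

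OCM1A is an established human line of uveal melanoma origin per the labels. The ABCB1-positive fraction (3 samples) was set against the ABCB1-negative fraction of the same line (3 samples). Both were collected with a MoFlo sorter after a commercial MDR1 shift assay, and the design text counts 3 independent assays. No drug treatment or genetic change is recorded for either fraction. With 1 line in the study, the p-values cover the spread from assay to assay and array to array in that line only.

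The sort and the lineage were checked first. ABCB1 (MDR1 or P-glycoprotein, which exports many drugs) had deposited signals of 408, 514 and 188 in positive replicates 1 to 3, against 78.4, 71.95 and 98.98 in negative replicates 1 to 3. All positive arrays lay above all negative arrays, as the sort labels them. The positive-minus-negative log2 difference was 1.57 ± 0.20 (SE, limma adjusted p = 0.00204), and 1.55, 2.15 and 1.02 in pairs 1 to 3. Here and below, SE is the moderated standard error of limma. It draws on the variance of all tested probes and is not the spread of the 3 pairs. Of 11 melanocyte markers 9 were tested, among them PMEL, MLANA, TYR and SOX10; S100B did not pass the detection filter. In limma 3 of the 9 (GPR143, RAB38 and S100A1) were higher in positive cells past the threshold and 0 were lower, with 0 lower at an unadjusted p under 0.05, beside 11.1% of all tested probes higher. Without the block 0 of the 9 passed in limma (adjusted p = 0.077 for GPR143, 0.0503 for RAB38 and 0.192 for S100A1), with 3 higher and 0 lower at an unadjusted p under 0.05. The summed deposited signal of the 9 markers ran from 69732 to 101290 in positive arrays and from 64107 to 81412 in negative arrays; the part of these markers in the results below was not tested. Of 14 markers of leukocytes, endothelium, epithelium and fibroblasts, 4 were tested (KRT18, CD14, EPCAM and PECAM1) and 0 passed the threshold in limma, with 0 at an unadjusted p under 0.05. Their summed signal ran from 375 to 444 in positive arrays and from 373 to 585 in negative arrays, and PTPRC, CD3E, CDH5, VWF, LUM and PDGFRB did not pass the detection filter.

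Entry into mitosis is driven by the kinase CDK1 bound to a B-type cyclin, and Aurora kinases then build and correct the spindle. Chromosomes are condensed, captured by microtubules and parted once the anaphase-promoting complex (APC/C) has tagged securin and cyclin B with ubiquitin for destruction. The transcripts of these proteins are made mainly in G2 and mitosis, so their level in a bulk sample follows both how many cells are in those phases and how much RNA each such cell holds, and these cannot be told apart here.

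Many promoters of this group carry CCAAT boxes, bound by NF-Y, and a short element called CHR (cell cycle genes homology region), bound by the MuvB complexes that repress or activate late cell cycle genes. The 250 bases before the annotated start are shown for both B-type cyclins, which are set side by side below, and for CDC20, the mitotic activator of the APC/C. The sequences are from RefSeq (build GRCh38.p14). CCNB1 lies at chr5:69166900-69167149, CCNB2 at chr15:59104896-59105145 and CDC20 at chr1:43358731-43358980, all on the plus strand. Capitals mark CCAAT and TTTGAA (CHR) on either strand, so ATTGG and TTCAAA mark the reverse strand; no 2 marked motifs overlap.
CCNB1: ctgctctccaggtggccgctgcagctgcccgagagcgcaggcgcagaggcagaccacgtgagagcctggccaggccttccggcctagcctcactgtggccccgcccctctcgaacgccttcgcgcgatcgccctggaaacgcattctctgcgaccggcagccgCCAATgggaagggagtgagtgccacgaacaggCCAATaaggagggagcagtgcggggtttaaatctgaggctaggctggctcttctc
CCNB2: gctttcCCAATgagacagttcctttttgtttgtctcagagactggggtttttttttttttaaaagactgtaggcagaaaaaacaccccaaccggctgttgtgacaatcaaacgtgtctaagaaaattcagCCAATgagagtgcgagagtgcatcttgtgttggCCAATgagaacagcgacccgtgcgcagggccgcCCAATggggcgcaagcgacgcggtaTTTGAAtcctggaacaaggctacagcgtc
CDC20: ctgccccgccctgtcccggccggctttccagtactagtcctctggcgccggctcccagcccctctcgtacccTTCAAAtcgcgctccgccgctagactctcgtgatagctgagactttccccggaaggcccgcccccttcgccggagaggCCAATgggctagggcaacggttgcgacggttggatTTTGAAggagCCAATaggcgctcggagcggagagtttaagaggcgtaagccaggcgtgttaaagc
The CCNB1 window held CCAAT at -87 and -55 from the start and no TTTGAA. The CCNB2 window held 4 CCAAT boxes and TTTGAA at -29, and the CDC20 window 2 CCAAT boxes with TTTGAA at -65 and, on the reverse strand, at -178. The promoter table matched 7 of the 10 genes; not matched were UBE2C, AURKA and BIRC5. CCAAT was in the window of 7 of these 7 genes and TTTGAA in 4 of them (TOP2A, CCNB2, CDC20 and CDK1), against 32% and 13.3% of all 35116 promoters of that length. The E2F core GCGGGAA was in 0 of the 7 and in 5.52% of all promoters. A member gene was counted if any of its listed windows held the motif, whereas the share is over single promoters. These matches are exact letters in a window and do not show binding, and variants of the motifs were not searched.

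Of the 9 member probes, 1 changed between the fractions, and the estimates of the others lay on both sides of 0. UBE2C passed the threshold and was 2.06-fold higher in ABCB1-positive cells; 0 members were lower past the threshold in limma with the replicate number as a block (adjusted p under 0.05 over 13186 probes), where 2 were lower and 2 higher at an unadjusted p under 0.05. The other 8 estimates lay between -0.33 (CCNB1) and 0.28 (AURKA) on the log2 scale. Over all tested probes 20.3% passed, 11.1% as higher and 9.2% as lower, so 1 of 9 is no larger a share than that of the array. The median difference of the members was 0.03, and that of all tested probes -0.02. The sign of the members' median changed with 1 pair: it was -0.082 without replicate 2 (3 of 9 members above 0), -0.0038 without replicate 1 and 0.074 without replicate 3. All log2 differences are ABCB1-positive minus ABCB1-negative after background correction with an offset of 50 and quantile normalisation; the offset compresses the differences of dim probes.

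**Figure D1:**
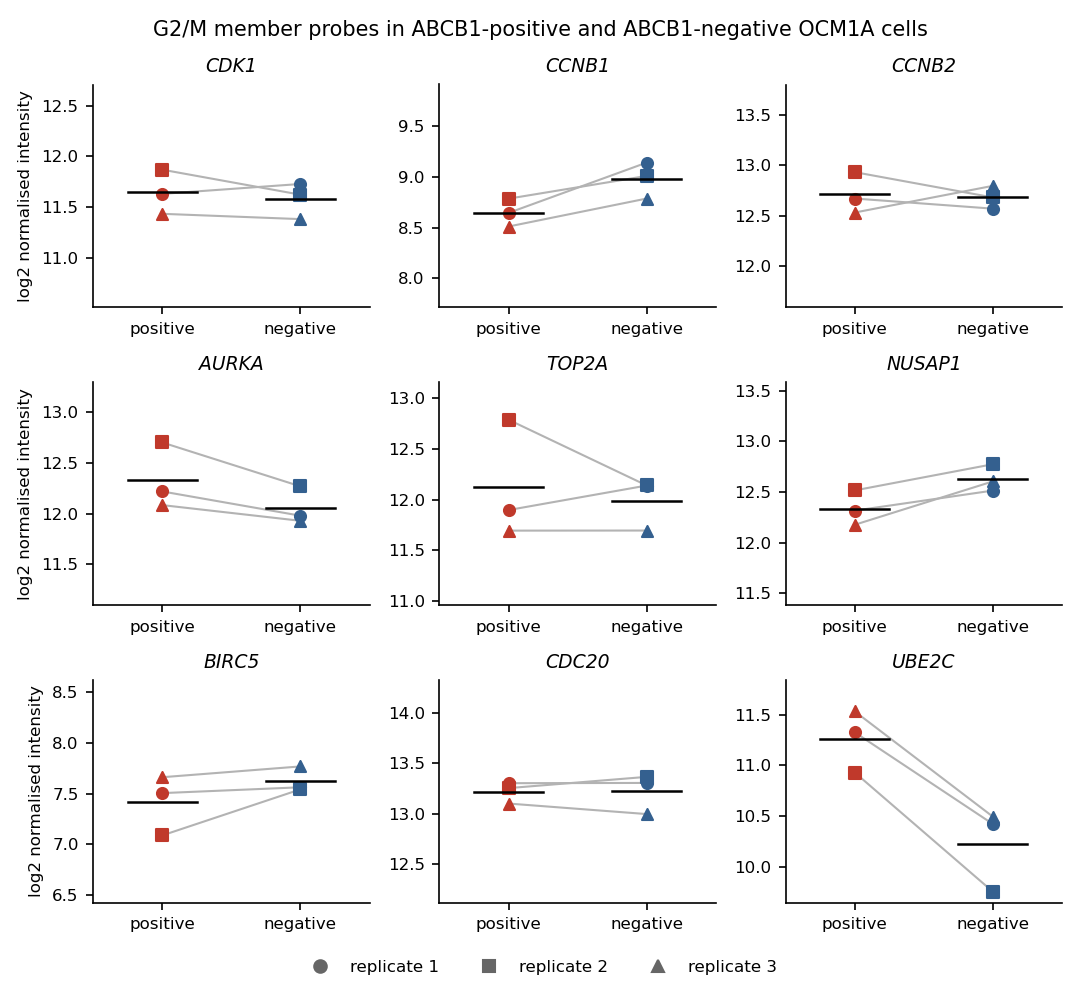
Normalised log2 intensity of the 9 member probes (vertical axis, each panel spanning the same log2 range) in ABCB1-positive and ABCB1-negative cells. Each symbol is 1 array, grey lines join arrays of the same replicate number and black bars are group means. The 3 positive UBE2C values (10.93 to 11.53) lie above the 3 negative ones (9.75 to 10.49), while the groups of CDK1, CCNB2, CDC20 and TOP2A overlap.

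The APC/C arm held the one member that changed. UBE2C, the ubiquitin-conjugating enzyme that starts chains on APC/C substrates, had deposited signals of 2892, 1625 and 2533 in positive replicates 1 to 3 and 1261, 692 and 1854 in negative replicates 1 to 3. On the normalised log2 scale these were 11.33, 10.93 and 11.53 in positive cells and 10.42, 9.75 and 10.49 in negative cells. Within each fraction replicate 2 was the lowest, and the positive array was higher in all 3 pairs, by 0.91, 1.18 and 1.04 for pairs 1 to 3. The log2 difference was 1.04 ± 0.11 (SE, n = 3 pairs), with a 95% interval of 0.78 to 1.30 and a limma adjusted p of 0.00128. It ranked 168 of 13186 probes by the size of the rise. Without the block the limma adjusted p was 0.0493, in a fit where 5.15% of all tested probes passed, 3.5% as higher and 1.65% as lower.

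A second UBE2C probe did not show this. ILMN_2265654 was dim, with signals of 71.3, 45.0 and 66.0 in positive replicates 1 to 3 and 59.2, 49.6 and 61.5 in negative replicates 1 to 3. Its log2 difference was 0.14 ± 0.12 (SE, n = 3 pairs, limma adjusted p = 0.428), with a 95% interval of -0.13 to 0.41. Its groups overlapped. Which transcripts of UBE2C each probe reports was not analysed here, so the change rests on the brighter probe, ILMN_2301083. With no background correction the difference of the dim probe was 0.32, and the adjusted p stayed above the threshold (limma adjusted p = 0.294).

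CDC20, which brings substrates to the APC/C in mitosis, had normalised log2 values of 13.30, 13.25 and 13.10 in positive replicates 1 to 3, against 13.31, 13.37 and 12.998 in negative replicates 1 to 3. Its groups overlapped and the pair differences ran from -0.11 to 0.10. The estimate was -0.0033 ± 0.11 (SE, n = 3 pairs), with a 95% interval of -0.26 to 0.25. PTTG1 (securin, the inhibitor of separase that the APC/C destroys) was read with ILMN_2042771. Its signals were 15009, 11954 and 11465 in positive replicates 1 to 3 and 11056, 10140 and 13318 in negative replicates 1 to 3. After normalisation all 3 positive values (13.55 to 13.76) lay above all 3 negative values (13.42 to 13.53), yet the difference was small and did not pass the threshold, at 0.16 ± 0.11 (SE, n = 3 pairs, limma adjusted p = 0.34).

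None of the 3 probes for the core mitotic kinase complex, CDK1 and its cyclins, passed the threshold. CDK1, the kinase that triggers mitosis, had normalised log2 values of 11.63, 11.87 and 11.43 in positive replicates 1 to 3 and 11.73, 11.62 and 11.38 in negative replicates 1 to 3. The order of the fractions changed between pairs, and the estimate was 0.07 with a 95% interval of -0.20 to 0.34. A second CDK1 probe, ILMN_1710428, gave -0.06 with an interval of -0.37 to 0.26.

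The B-type cyclins differed in their estimates. CCNB1, the main cyclin of mitotic entry, had signals of 361, 317 and 249 in positive replicates 1 to 3 and 477, 397 and 512 in negative replicates 1 to 3. After normalisation the positive values (8.64, 8.79 and 8.51) did not overlap the negative values (9.14, 9.01 and 8.79 in replicates 1 to 3), although the highest positive and the lowest negative array were nearly level. The positive array was lower in each of the 3 pairs. The estimate was -0.33 ± 0.11 (SE, n = 3 pairs, limma adjusted p = 0.0756), with a 95% interval of -0.60 to -0.07, and it did not pass the threshold. CCNB2 had normalised values of 12.67, 12.93 and 12.53 in positive replicates 1 to 3 and 12.57, 12.68 and 12.80 in negative replicates 1 to 3. These overlapped, and the estimate was 0.03 with an interval of -0.27 to 0.33. The difference between the cyclins themselves was not tested.

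AURKA, the kinase that matures centrosomes and spindle poles, had normalised log2 values of 12.22, 12.70 and 12.08 in positive replicates 1 to 3 and 11.98, 12.27 and 11.93 in negative replicates 1 to 3. The positive array was the higher one in all 3 pairs, by 0.15 to 0.43, but the groups overlapped across pairs because both arrays numbered 2 were the highest of their fraction. The estimate was 0.28 ± 0.11 (SE, n = 3 pairs, limma adjusted p = 0.123). A second AURKA probe, ILMN_2357438, gave 0.25 ± 0.12 (SE, limma adjusted p = 0.166), so both probes gave nearly the same value below the threshold.

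Among the chromosome and spindle genes, TOP2A (topoisomerase II alpha, which untangles sister chromatids) was high on 1 array. Its signals were 4418, 5986 and 2879 in positive replicates 1 to 3 and 4250, 3809 and 4292 in negative replicates 1 to 3. Positive replicate 2 stood highest, at 12.79 on the normalised log2 scale against 11.69 to 12.14 on the other 5 arrays. The pair differences were -0.24, 0.65 and -0.0011 in pairs 1 to 3, and the estimate of 0.14 (95% interval -0.26 to 0.53) became -0.12 without replicate 2.

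NUSAP1 (nucleolar and spindle associated protein, which bundles microtubules around chromosomes) had normalised values of 12.32, 12.52 and 12.18 in positive replicates 1 to 3 and 12.51, 12.77 and 12.60 in negative replicates 1 to 3. The positive array was lower in each of the 3 pairs, by 0.20 to 0.43 in size, and the estimate was -0.30 ± 0.11 (SE, limma adjusted p = 0.0995). A second NUSAP1 probe, ILMN_2409298, gave -0.28 ± 0.12 (SE, limma adjusted p = 0.123). Neither passed the threshold.

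BIRC5 (survivin, a subunit of the chromosomal passenger complex) was dim on its member probe, with signals of 116, 52.2 and 112 in positive replicates 1 to 3 and 113, 103 and 201 in negative replicates 1 to 3. Positive replicate 2 was the lowest of the 6 arrays, the groups overlapped and the estimate was -0.21 ± 0.12 (SE, limma adjusted p = 0.27). The brighter probe ILMN_2349459 had signals of 1032, 566 and 1054 in positive replicates 1 to 3 and 1365, 869 and 1776 in negative replicates 1 to 3. Its estimate was -0.41 ± 0.13 (SE, limma adjusted p = 0.0635). It did not pass the threshold with all pairs, but it did without replicate 3, at -0.57 (limma adjusted p = 0.0116).

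**Figure D2:**
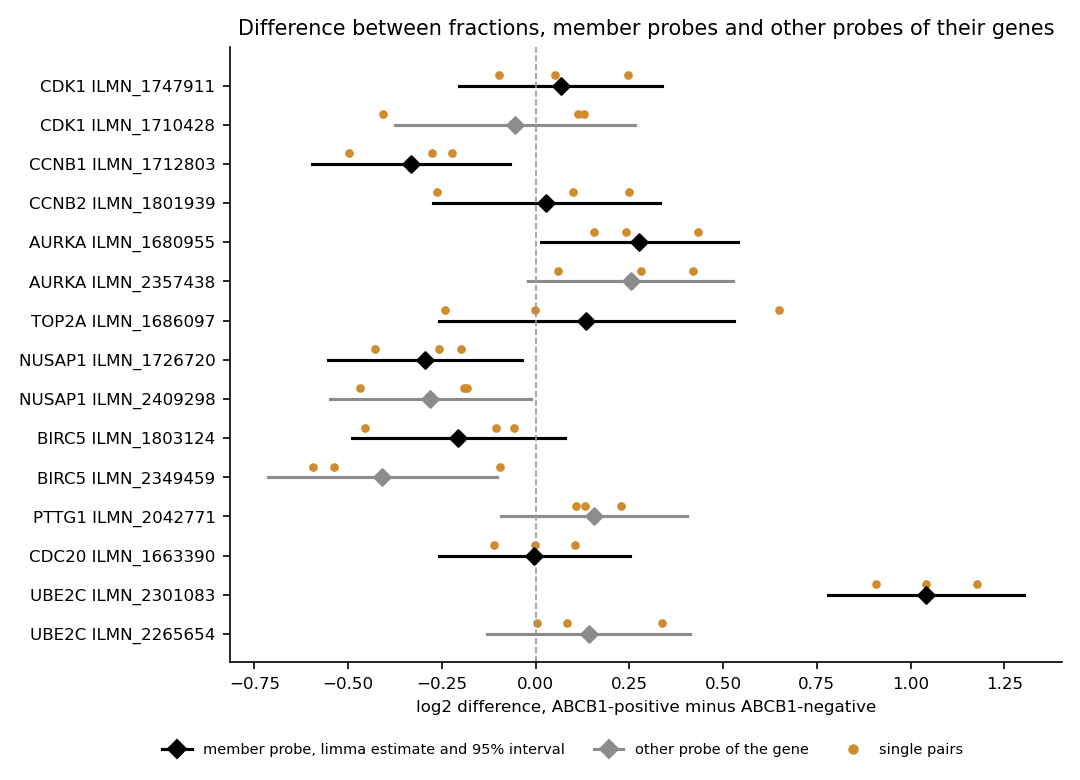
Log2 difference (horizontal axis, ABCB1-positive minus ABCB1-negative) of the member probes and of the other probes of the same genes. Diamonds and lines are the limma estimate and its 95% interval, small dots the 3 single pairs; only ILMN_2301083 of UBE2C, at 1.04, has an adjusted p under 0.05, and the second UBE2C probe is at 0.14.

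The direction over the 3 pairs was mixed among the members, in counts near the shares of the array. The positive array was higher in all 3 pairs for 2 of 9 members (AURKA and UBE2C) and lower in all 3 for 3 of 9 (CCNB1, NUSAP1 and BIRC5), where 27.8% and 28% of all tested probes did so. The groups did not overlap for UBE2C, which was higher, and CCNB1, which was lower. Over all tested probes this held for 14.8% and 12.3%, so 1 of 9 in each direction is also near the share of the array. The estimate was above 0 for 5 members and below 0 for 4. The fraction accounted for 75.7% of the variation of UBE2C between arrays, 61.9% of that of CCNB1 and 58.4% of that of NUSAP1, but for 0.016% of that of CDC20, 1.13% of that of CCNB2 and 3.28% of that of TOP2A. The replicate number, shared by both fractions, held 88.4% of the variation of CDC20, 77.8% of that of CDK1 and 71.4% of that of TOP2A.

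**Figure D3:**
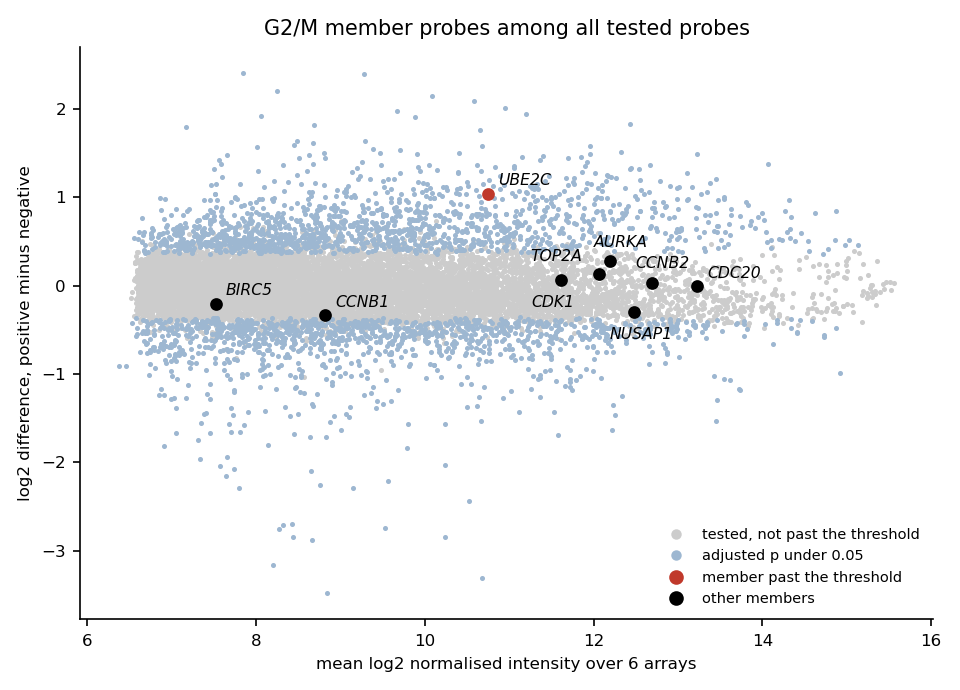
Log2 difference between fractions (vertical axis) against the mean normalised log2 intensity (horizontal axis) of the 13186 tested probes, 1 point each. UBE2C lies at 1.04, among the blue probes past the threshold, and the other 8 members lie in the grey band between -0.33 and 0.28.

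Over the 6 arrays the profiles of the members ran both together and opposite. As a description over arrays that share assays and the fraction difference, and with no test, TOP2A and CDK1 had r = 0.92 and TOP2A and AURKA r = 0.86, while NUSAP1 and UBE2C had r = -0.96 and AURKA and BIRC5 r = -0.95. Of the 36 pairs of members 20 had a positive r. The mean of the centred members was highest in positive replicate 2 (0.17) and lowest in negative replicate 3 (-0.10). The 5 probes outside the members with the profile most like this mean over the 6 arrays were those of MALT1 (r = 0.99), RPS6 (0.97), CACHD1 (0.97), KCNK18 (0.97) and ILMN_1703511 (0.97), which the annotation used here does not name. They were picked for the highest r among all tested probes over only 6 arrays. Whether they share regulation with the members was not tested.

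Other genes of G2 and mitosis were read from a list. Of its 74 genes, 72 had a probe and 68 were tested, 1 probe a gene. In ABCB1-positive cells 11 of the 68 (16.2%) rose and 0 fell past the threshold in limma, with 17 higher and 2 lower at an unadjusted p under 0.05. The background was 11.1% of all tested probes higher and 9.2% lower. The median difference over the 68 was 0.10, but 0.037 without replicate 2, 0.218 without replicate 3 and 0.0166 in the second table the authors deposited. Without the block 6 were higher and 0 lower past the threshold, with 13 higher and 0 lower at an unadjusted p under 0.05.

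Several of the genes that rose belong to the chromosomal passenger complex, which corrects kinetochore attachment and directs cytokinesis. AURKB, its kinase, had signals of 5282, 2656 and 3779 in positive replicates 1 to 3 and 2188, 1548 and 3714 in negative replicates 1 to 3, with a difference of 0.76 ± 0.12 (SE, limma adjusted p = 0.00529). The scaffold INCENP had 700, 417 and 629 in positive replicates 1 to 3 and 281, 324 and 346 in negative replicates 1 to 3, with a difference of 0.87 ± 0.18 (SE, limma adjusted p = 0.0124). CDCA8 (borealin) had 2607, 2002 and 1778 in positive replicates 1 to 3 and 1195, 1252 and 1944 in negative replicates 1 to 3, with 0.67 ± 0.12 (SE, limma adjusted p = 0.0077). After normalisation the positive values of AURKB, INCENP and CDCA8 lay above the negative values without overlap. BIRC5, the remaining subunit of the complex, had estimates below 0 on both of its probes, neither past the threshold. Without the block INCENP and CDCA8 passed, and AURKB did not (limma adjusted p = 0.0826). CDCA8 was lost with median scaling and in the second deposited table (limma adjusted p = 0.0646 and 0.0648).

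CKS2, a small subunit that binds CDK1, had the highest estimate of the list beside INCENP (0.88 and 0.87), and the order of the 2 changed between alternative fits. Its signals were 9807, 8090 and 9178 in positive replicates 1 to 3 and 4274, 4174 and 6883 in negative replicates 1 to 3, with a difference of 0.88 ± 0.11 (SE, limma adjusted p = 0.00205). Its relative CKS1B rose by 0.47 and CDC25B, a phosphatase that activates CDK1, by 0.42, whereas CDK1 itself was at 0.07 and did not pass. RACGAP1, which with KIF23 forms the centralspindlin of cytokinesis, rose by 0.75, and ESPL1 (separase, which cuts cohesin at anaphase) by 0.62. KIF23 itself did not pass, at 0.25 on its brighter and 0.15 on its dimmer probe (limma adjusted p = 0.309 and 0.529). TROAP, TACC3 and PSRC1, which act at the spindle, rose by 0.74, 0.50 and 0.48. Without the block CKS2, RACGAP1, ESPL1 and TROAP passed in limma. CKS1B, CDC25B, TACC3 and PSRC1 did not pass there (limma adjusted p = 0.201, 0.224, 0.107 and 0.14 in that order). These last 4 were also lost with median scaling, with no background correction and in the second deposited table. PSRC1, CKS1B and CDC25B were lost without replicate 1 as well (limma adjusted p = 0.194, 0.168 and 0.28). TACC3 was lost without replicate 3, and CDC25B with neqc (limma adjusted p = 0.0866 and 0.0594). ESPL1 was lost with median scaling and in the second deposited table (limma adjusted p = 0.0604 and 0.0644). RACGAP1 was lost in the second deposited table (limma adjusted p = 0.0502).

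Most of the list did not pass the threshold. This held for the proliferation antigen MKI67 (0.33), PLK1 (0.11), CCNA2 (0.19), the spindle assembly factor TPX2 (0.01) and the checkpoint genes BUB1 (0.23), BUB1B (-0.02) and MAD2L1 (-0.30). Probes of a gene differed in places. A dimmer probe of CENPA (0.50) and a dimmer one of FOXM1 (0.44) passed, while the brighter probes used for the list, at 0.34 and 0.29, did not. Neither of these dimmer probes passed without the block (limma adjusted p = 0.118 and 0.171). For PSRC1 the brighter probe used for the list passed at 0.48, and a dimmer one, at 0.26, did not (limma adjusted p = 0.127).

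In the list of DNA replication and S phase the called genes were lower. Of 37 genes 33 were tested: 8 (24.2%) fell and 0 rose past the threshold in limma, where 14 were lower and 0 higher at an unadjusted p under 0.05, beside a background of 9.2% lower. Their median difference was -0.28. UNG, a uracil glycosylase of replicating DNA, had -0.84 ± 0.24 (SE, limma adjusted p = 0.0427), UHRF1, which keeps methylation at replicated DNA, -0.66, GINS3, part of the replicative helicase, -0.52 and MCM6, a helicase subunit, -0.47. UNG rested largely on pair 2, at -1.68 against -0.43 and -0.40 in pairs 1 and 3. No S phase gene passed in limma without the block (0 of 33, with 9 lower and 0 higher at an unadjusted p under 0.05).

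Of 25 inhibitors, repressors and G1 cyclins or kinases, 22 were tested: 2 (9.09%) fell and 0 rose past the threshold in limma, with 5 lower and 2 higher at an unadjusted p under 0.05 and a median of -0.06. This share is that of the array, where 9.2% of all tested probes were lower. The 2 were CDK6, a G1 kinase (-0.55), and CCND3, a D-type cyclin (-0.43). CDKN1A, the p53-induced kinase inhibitor, had -0.31 and did not pass. A dimmer probe of CDKN2A rose by 0.54, while the brighter one, at 0.27, did not pass. The dimmer probe did not pass without the block (limma adjusted p = 0.347). None of the 22 passed in limma without the block (0, with 2 lower and 0 higher at an unadjusted p under 0.05).

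**Figure D4:**
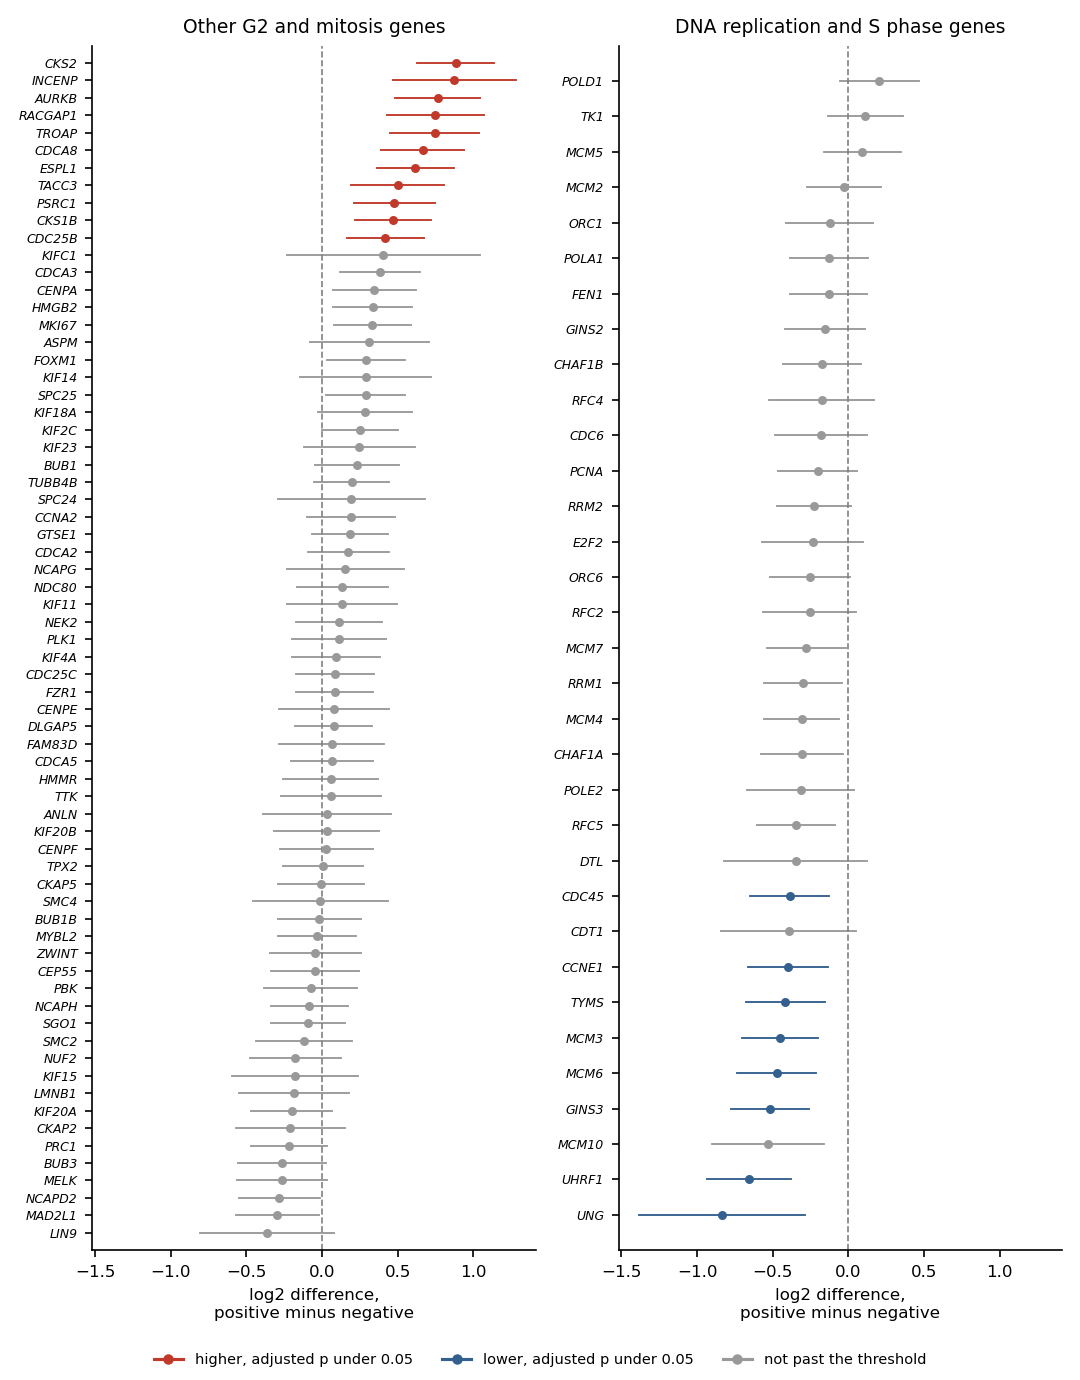
Log2 difference (horizontal axis, ABCB1-positive minus ABCB1-negative) with its 95% interval for 68 other genes of G2 and mitosis (left) and 33 genes of DNA replication and S phase (right), 1 probe a gene. The 11 red genes rose and the 8 blue genes fell at an adjusted p under 0.05; grey genes did not pass.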

How the data were processed

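RNA of 6 sorted OCM1A samples was hybridised as biotin-labelled cRNA to 1-colour Illumina bead arrays, per the labels. The deposited intensity values are linear, run below 0 and differ in mean between arrays (668 to 894 in positive and 670 to 958 in negative arrays), so the authors had subtracted a background without scaling the arrays; detection p-values stand beside them per the file headers. A second table deposited by the authors holds the same intensities, each array multiplied by 1 factor to a common mean. The scanner software is not given in the sources used here. Between 12846 and 13183 of 24526 probes were detected per array.

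Intensities were corrected with normexp (offset 50), quantile-normalised and put on the log2 scale, and the deposited intensity is quoted as signal. Probes with a detection p under 0.05 on at least 3 of 6 arrays were tested, 13186 in all. Groups were compared with limma 3.58.1 (R 4.3.3: lmFit and eBayes, two-sided, Benjamini-Hochberg over all 13186), blocked on replicate number. The rule that defines the comparison pairs samples by number, and deviations from the group means correlated with r = 0.48, 0.64 and 0.48 for numbers 1, 2 and 3; the labels do not state the pairing outright. The number of arrays limits the precision. The procedure was tested on simulated data that follow the model limma assumes, so this does not check that model. Slide and scan date were not given, so array batches were not tested.

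Genes were named from the platform annotation of 2016 (21834 probes with 1 gene, 0 with several, 2692 unnamed here). A gene with several probes was represented by the probe of highest mean level. Text genes were all members, the other probes of their genes, ABCB1, up to 12 called genes of the mitosis list and up to 4 of each other cell cycle list by size of change, and the 5 probes of most similar profile. The uncalled genes of the mitosis list, CDKN1A, the markers, and the second probes of CENPA, FOXM1, PSRC1 and CDKN2A were chosen for the text after their values were seen. Members and lists, and the block, were chosen with earlier results of these data known. Alternatives covered the block, background, scaling, filter, variance prior, the second deposited table and leaving out each replicate number.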

Additional observations from a re-analysis of the deposited data

How the results depend on the processing

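UBE2C (ILMN_2301083) passed the threshold in all 14 alternative fits and was the only member to do so, and ABCB1 passed in all 14. The 11 mitosis genes that rose kept their direction in all 14. Without the replicate block the counts were 679 probes (462 higher, 68.0%), 6 mitosis, 0 S phase and 0 arrest genes, against 2682, 11, 8 and 2 with it; the S phase and arrest counts of 0 compare with 9 and 2 genes at an unadjusted p under 0.05 in limma. Median scaling gave 1348 probes, 5 mitosis, 1 S phase and 0 arrest genes. The second deposited table gave 6 mitosis genes (5 higher), 2 S phase and 0 arrest genes. Of the 11 mitosis genes that rose, 4 passed again there. This second table moved the median of all probes to -0.15 and the share of higher calls to 40.7%, from 54.8%. S phase and arrest genes numbered 1 and 1 with no background correction (the arrest gene was higher, and CDK6 and CCND3 did not pass, at adjusted p = 0.0749 and 0.0999), 4 and 1 with 75th percentile scaling and 3 and 1 with cyclic loess, and S phase genes 5 with neqc. Leaving out a replicate number gave 1525 to 2931 probes, 8 to 14 mitosis, 4 to 9 S phase and 0 to 3 arrest genes, with the fewest probes, S phase genes and arrest genes (1525, 4 and 0) without number 1. Without number 2, 13 of the 14 mitosis genes were higher and 1 was lower, and 1 of 2 arrest genes was higher; with neqc 1 of 2 arrest genes was higher. The cause of the shifts in these counts was not tested.

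Estimates near 0 changed sign. CDC20 was at 0.0433 with median scaling, 0.113 with 75th percentile scaling and 0.0557 with cyclic loess, and from -0.0569 to 0.0523 with a number left out (above 0 without number 2). CDK1 was at -0.00117 in the second deposited table and from -0.0218 (without number 2) to 0.149 with a number left out; its second probe ran from -0.147 to 0.12 (without number 3). CCNB2 ran from -0.0821 (without number 2) to 0.173, with -0.00376 without number 1, and TOP2A from -0.125 (without number 2) to 0.32. CCNB1, AURKA, NUSAP1 and BIRC5 kept their sign in all 14 fits. A block by slide was not run because no slide is given. Dim probes are limited by the offset: ABCB1 was at 2.27 with no background correction, against 1.57.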
